A study of Mus musculus with 10 samples.

Results

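The guanylate-binding proteins described here are the 10 genes Gbp2 to Gbp11, taken by symbol from a table of 22329 genes, in 10 mouse tumours. They were chosen as a gene family and not by their values, although earlier results of these data were known. Guanylate-binding proteins are large GTPases that are produced in many cell types after exposure to interferons, above all interferon gamma. They assemble on the vacuoles and membranes of bacteria and parasites inside cells, disrupt them, and promote inflammasome activation and pyroptosis, an inflammatory form of cell death. In tumours their transcripts are used as a trace of interferon exposure, in cancer cells as well as in infiltrating immune cells.

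The tumours grew from B16F10, a melanoma line of C57BL/6 mice, after 500000 cells were placed under the skin of C57BL6/J mice. Each tumour received 1 injection of 80 µg of mRNA and was taken 7 days later for sequencing of polyA RNA. In 5 cytokine mRNA tumours, numbered 6 to 10, the injection held 20 µg each of 4 mRNAs, which encoded murine single chain IL-12, IL-15sushi, GM-CSF and IFNalpha. In 5 control mRNA tumours, numbered 1 to 5, all 80 µg encoded luciferase. The sources used here give neither age nor sex of the mice, and no group without an injection is among the samples. The comparison asks which transcripts differed between the groups at that time. Values are transcripts per 1000000 (TPM), which are shares of a library corrected for transcript length. Levels of different genes can be set side by side only as far as reads that match several genes were counted alike. How such reads were treated is not stated in the sources used here. Because TPM are shares and the depth is unknown, no counting interval can be given.

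Some tumours stood apart before any Gbp gene was considered. The summed TPM of 9 melanocyte markers, which check the melanoma label, was 1477 in cytokine tumour 7, against 10983 to 29931 in the other 4 cytokine tumours and 4608 to 24769 in control tumours. The lowest of the control values was that of tumour 1. In cytokine tumour 7, Gpnmb alone gave 1435 TPM of the sum, and every other marker was at 24.0 TPM or below. Pmel, a pigment granule protein, was at 1.22 TPM in tumour 7, so that tumour shows little RNA of the labelled melanoma. The median change of the 9 markers, cytokine mRNA minus control mRNA tumours, was -1.86 on the log2(TPM + 1) scale. Limma called 0 of them, with 0 at an unadjusted p under 0.05 and 0 by the exact permutation test. Their spread was wide, as in Pmel with -1.86 ± 1.65 (SE), so an unchanged melanoma content is not shown. Because tumour 7 stood apart, results are also given without it. Mitochondrial transcripts made up 4.44 to 19.2% of TPM in cytokine mRNA tumours and 16.2 to 27.9% in control tumours. In control tumour 5, Gbp4, Gbp5, Gbp8 and Gbp10 were listed at 0. Ribosomal protein genes such as Rps29 and Rpl27, which every cell uses, were listed at 0 in cytokine tumours 6 or 7, so a 0 in this table may be a failed estimate. The ribosomal protein genes found this way were not at 0 in control tumour 5. Their medians over the 10 libraries ran from 3.52 TPM for Rps6 to 67.2 TPM for Rps29, and what set these levels was not tested. Gbp2, at 4.44 TPM there, was also at its lowest among control tumours. The cause of the 0 values in tumour 5 was not tested.

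In the annotation of mouse genes used here (GENCODE release M21, build GRCm38), 4 members lie on chromosome 3 in the order Gbp5, Gbp7, Gbp3 and Gbp2, with the non-member Gbp2b between the last pair. The other 6 lie on chromosome 5 in the order Gbp8, Gbp9, Gbp4, Gbp10, Gbp6 and Gbp11. RefSeq promoter sequences (GRCm38.p6) matched 4 of the 10 members, all on chromosome 3. They are shown because all of them hold, within 250 bases upstream of a transcription start, the letters of an interferon-stimulated response element, the type of DNA element through which interferons act on many genes. Capitals mark each match to GAAANNGAAA, which on the printed strand reads as its reverse complement, and each match to TTCNNNGAA, the letters of a gamma-activated sequence, which is its own reverse complement. Both strands were searched, and each stretch below ends before the start site.
Gbp5, chr3:142496684-142496904, plus strand: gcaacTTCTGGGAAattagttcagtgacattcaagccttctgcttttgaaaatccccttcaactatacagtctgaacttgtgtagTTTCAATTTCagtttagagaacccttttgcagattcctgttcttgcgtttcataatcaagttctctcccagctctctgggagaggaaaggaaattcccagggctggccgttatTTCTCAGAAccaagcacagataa
Gbp7, chr3:142530086-142530306, plus strand: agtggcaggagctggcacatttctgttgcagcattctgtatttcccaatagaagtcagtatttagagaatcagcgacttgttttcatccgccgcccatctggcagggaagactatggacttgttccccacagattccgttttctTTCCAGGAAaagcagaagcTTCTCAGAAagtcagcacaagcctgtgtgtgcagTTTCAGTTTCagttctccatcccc
Gbp3, chr3:142559794-142560014, plus strand: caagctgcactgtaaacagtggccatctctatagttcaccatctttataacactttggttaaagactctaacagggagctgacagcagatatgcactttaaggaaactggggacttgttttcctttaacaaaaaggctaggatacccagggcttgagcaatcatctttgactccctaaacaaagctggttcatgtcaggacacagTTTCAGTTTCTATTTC
Gbp2, chr3:142620413-142620623, plus strand: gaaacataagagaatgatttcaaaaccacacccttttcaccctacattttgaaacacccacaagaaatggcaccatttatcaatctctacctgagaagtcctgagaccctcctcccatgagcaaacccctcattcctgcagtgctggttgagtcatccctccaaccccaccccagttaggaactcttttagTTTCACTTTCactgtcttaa

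Counted from the start site, the GAAANNGAAA match lay 165 to 156 bases upstream in Gbp5, 53 to 44 in Gbp7 and 59 to 50 in Gbp2. Gbp3 had 2 matches that overlap by 4 bases, 45 to 36 and 39 to 30 bases upstream of its first start, and none upstream of its second. TTCNNNGAA matches were found in Gbp5, 245 to 237 and 52 to 44 bases upstream, and in Gbp7, 106 to 98 and 87 to 79 bases upstream. No TTCNNNGAA match lay in these windows of Gbp2 and Gbp3. Among 32851 RefSeq promoters, 2.98% held GAAANNGAAA within 250 bases upstream, 7.02% held TTCNNNGAA and 0.332% held both. These matches describe letters in a window, and the expression data do not show which of them, if any, was bound.

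All 10 Gbp genes rose in cytokine mRNA tumours, and in each of them every cytokine mRNA tumour lay above every control tumour. Their summed TPM was 1369, 1348, 1323, 1554 and 724 in cytokine tumours 6 to 10, against 355, 139, 285, 138 and 17.7 in control tumours 1 to 5. The median change of the members was 3.11 on the log2(TPM + 1) scale, with a range of 2.03 to 4.47, while the median of all tested genes was -0.18. The fit (limma on log2(TPM + 1), adjusted over all 12497 genes tested, called at an adjusted p under 0.05) called 10 of 10 members higher, where 7.41% of all tested genes were called higher and 3.02% lower. The groups did not overlap, with cytokine mRNA above control, in 10 of 10 members and in 5.45% of all tested genes. In bulk tumours, more cells of a type that expresses a gene and more RNA of that gene per cell cannot be told apart. Without tumour 7 all 10 members were called, with changes of 2.17 to 4.25, where 5.23% of all tested genes were called higher. Without control tumour 5 all 10 were called, with changes of 1.53 to 4.18, where 3.62% of all tested genes were called higher. Without cytokine tumours 6 and 7 the changes of the 10 members were 2.16 to 4.02 with a median of 3.02, and Gbp8 and Gbp10 were called, at limma adjusted p of 0.0452 and 0.0471, where 0.152% of all tested genes were called higher. An exact 2-sided permutation test gave each member 0.00794, the smallest p that 5 against 5 allows. That p follows from the lack of overlap given above and adds nothing to it. After adjustment over all tested genes it was 0.0860, so none of the members was called (0% of tested genes). With 1153 of 12497 tested genes at the smallest p, the adjustment could call no gene.

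**Figure D1:**
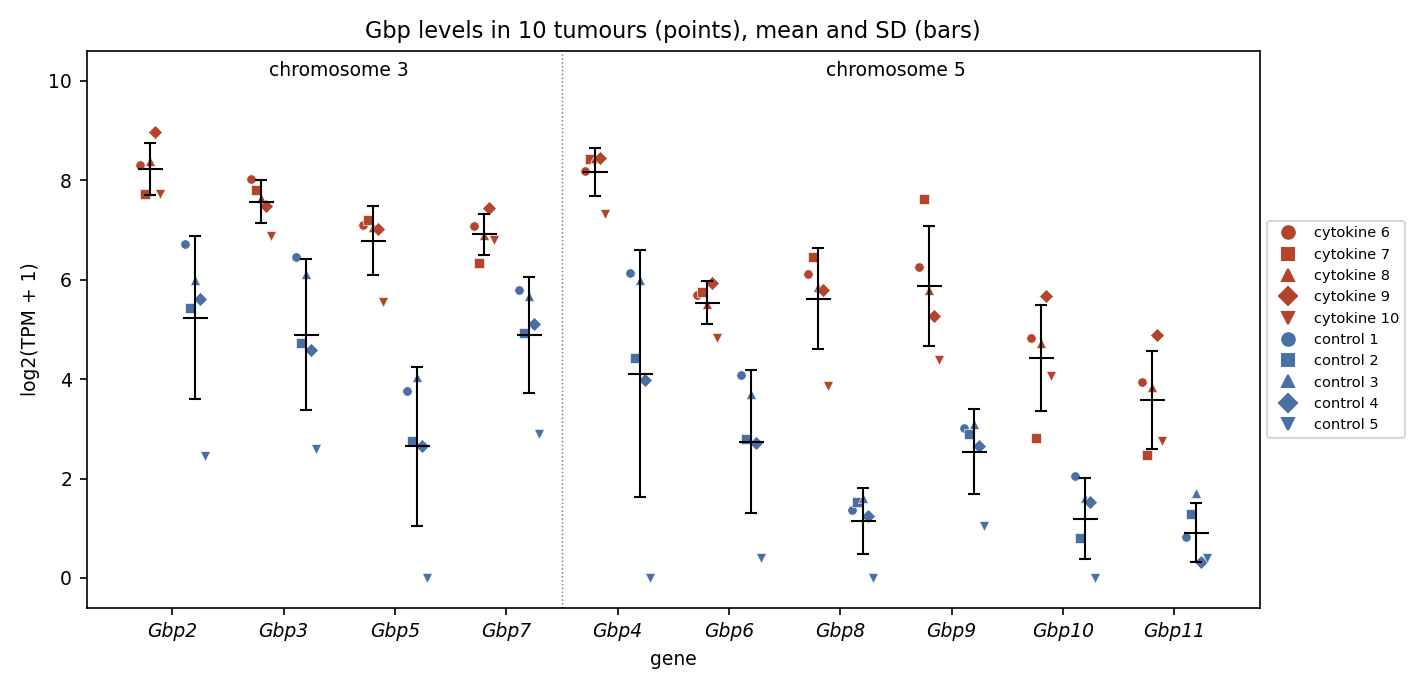
Levels of the 10 Gbp genes as log2(TPM + 1), with cytokine mRNA tumours (red, n = 5) left of control mRNA tumours (blue, n = 5) for each gene. Points are tumours, bars are the group mean ± SD on that scale, and in each gene all cytokine mRNA points lie above all control points.

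Gbp2 and Gbp5 carry a lipid anchor (prenylation) that attaches them to membranes. Gbp2, which coats the vacuole of Toxoplasma in mouse cells, had 317, 211, 335, 497 and 211 TPM in cytokine tumours 6 to 10, against 104, 42.0, 62.7, 47.5 and 4.44 TPM in control tumours 1 to 5. It was highest in tumour 9, and the lowest cytokine mRNA value was 2.02 times the highest control value, that of tumour 1. Gbp2 averaged 314 ± 118 TPM in cytokine mRNA tumours and 52.1 ± 36.1 TPM in control tumours (SD, n = 5 each), and rose by 2.99 ± 0.66 (SE) on the log2(TPM + 1) scale, with a limma adjusted p of 0.0202. It was the most abundant member by mean in both groups. Without control tumour 5 its change was 2.29, and the adjusted p passed 0.05 when tumour 6 or tumour 8 was left out.

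Gbp5, linked in mouse macrophages to the NLRP3 inflammasome and, with Gbp2, to the AIM2 inflammasome, had 136, 145, 132, 128 and 46.0 TPM in cytokine tumours 6 to 10. Control tumours 1 to 4 had 12.5, 5.74, 15.6 and 5.32 TPM, and tumour 5 was listed at 0. The cytokine mRNA tumours fell into 4 close values and tumour 10, which was still 2.95 times the highest control tumour. Gbp5 averaged 117 ± 40.5 TPM in cytokine mRNA tumours (SD, n = 5) and rose by 4.14 ± 0.67 (SE), with a limma adjusted p of 0.0107. Without control tumour 5 the change was 3.48 and the gene remained called, as it did with each other single tumour left out.

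Gbp3 and Gbp7 share the chromosome 3 cluster with these genes, and mice that lack the cluster are susceptible to Toxoplasma. Gbp3 had 258, 221, 198, 178 and 116 TPM in cytokine tumours 6 to 10, against 86.1, 25.6, 68.6, 22.9 and 5.05 TPM in control tumours 1 to 5. Tumour 10 was 1.35 times control tumour 1, the narrowest gap between the groups among the members. Gbp3 averaged 194 ± 52.7 TPM in cytokine mRNA tumours and 41.6 ± 34.1 TPM in control tumours (SD, n = 5 each), and rose by 2.67 ± 0.61 (SE, limma adjusted p = 0.0229). That call was lost without tumour 2, 4, 6 or 8, at limma adjusted p of 0.0538, 0.0562, 0.0652 and 0.0548.

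Gbp7, reported in mouse to help assemble the NADPH oxidase on phagosomes, had 135, 79.5, 118, 171 and 110 TPM in cytokine tumours 6 to 10. In control tumours 1 to 5 it had 54.5, 29.3, 49.97, 33.3 and 6.48 TPM. The lowest cytokine mRNA value was that of tumour 7, not tumour 10, and the groups again did not overlap. Gbp7 rose by 2.03 ± 0.48 (SE), the smallest change of the members with a pseudocount of 1, with a limma adjusted p of 0.0260, from means of 123 ± 33.8 TPM in cytokine mRNA tumours and 34.7 ± 19.1 TPM in control tumours (SD, n = 5 each). With a pseudocount of 5 its change was 1.84 and that of Gbp11 was 1.47. Without tumour 2, 4, 6, 8 or 9 the limma adjusted p was between 0.0547 and 0.0691.

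On chromosome 5, Gbp4, reported in mouse to restrain Irf7, a transcription factor of type I interferon genes, had 289, 344, 345, 349 and 159 TPM in cytokine tumours 6 to 10. Control tumours 1 to 4 had 69.1, 20.4, 62.6 and 14.7 TPM, and tumour 5 was listed at 0. Tumours 7, 8 and 9 lay within 5 TPM of each other, and tumour 10 was 2.30 times the highest control tumour. Gbp4 averaged 297 ± 81.1 TPM in cytokine mRNA tumours (SD, n = 5), and its change was 4.06 ± 0.96 (SE), with a limma adjusted p of 0.0251. It was the member that moved most with control tumour 5, and its change without that tumour was 3.04 with an adjusted p of 0.0190. Leaving out tumour 2, 4, 6, 8 or 9 took its limma adjusted p to between 0.0533 and 0.0651, and a pseudocount of 0.1 took it to 0.0699.

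Gbp6 and Gbp10, both tied in mouse macrophages to defence against Listeria and mycobacteria, differed in level and in pattern. Gbp6 had 50.3, 52.6, 44.6, 60.1 and 27.2 TPM in cytokine tumours 6 to 10, against 16.0, 5.97, 12.1, 5.53 and 0.318 TPM in control tumours 1 to 5. Its mean was 47.0 ± 12.4 TPM in cytokine mRNA tumours and 7.98 ± 6.13 TPM in control tumours (SD, n = 5 each), a change of 2.80 ± 0.59 (SE, limma adjusted p = 0.0176). The groups did not overlap, and Gbp6 varied least among the cytokine mRNA tumours, with an SD of 26.3% of the mean. Its change was 2.21 without control tumour 5, and its limma adjusted p was 0.0535 without tumour 6.

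Gbp10 had 27.4, 6.04, 25.5, 50.2 and 15.6 TPM in cytokine tumours 6 to 10. Control tumours 1 to 4 had 3.17, 0.739, 2.04 and 1.87 TPM, and tumour 5 was listed at 0. Tumour 7 was the lowest cytokine mRNA tumour and tumour 9 the highest, with a ratio of 8.32 between them, and tumour 7 was 1.91 times the highest control tumour. Gbp10 averaged 24.9 ± 16.5 TPM in cytokine mRNA tumours (SD, n = 5) and rose by 3.22 ± 0.54 (SE), with a limma adjusted p of 0.0111. It kept its call with each single tumour left out.

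Gbp8 had 68.1, 87.0, 56.9, 54.6 and 13.5 TPM in cytokine tumours 6 to 10, whereas control tumours 1 to 4 had 1.57, 1.89, 2.06 and 1.37 TPM and tumour 5 was listed at 0. Even tumour 10 was 6.55 times the highest control tumour, the widest gap between the groups among the members. Gbp8 averaged 56.0 ± 27.0 TPM in cytokine mRNA tumours (SD, n = 5), and rose by 4.47 ± 0.49 (SE) with a limma adjusted p of 0.00362, the largest change of the members with a pseudocount of 1 and all tumours. With a pseudocount of 5 its change was 3.09, below Gbp4 at 3.47 and Gbp5 at 3.32, and without control tumour 1 it was 4.52, against 4.57 for Gbp4. It ranked 4 by p and 21 by change among the 12497 genes tested, and its change lay between 4.18 and 4.91 with each single tumour left out and between 3.09 and 5.57 over pseudocounts of 5 and 0.1.

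Gbp9 had 75.2, 196, 54.2, 37.4 and 19.8 TPM in cytokine tumours 6 to 10, against 7.04, 6.40, 7.55, 5.27 and 1.05 TPM in control tumours 1 to 5. Tumour 7 stood well above the other cytokine mRNA tumours, and tumour 10 was 2.63 times the highest control tumour. Gbp9 averaged 76.6 ± 70.0 TPM in cytokine mRNA tumours (46.6 TPM without tumour 7) and 5.46 ± 2.61 TPM in control tumours (SD, n = 5 each). It rose by 3.33 ± 0.58 (SE), with a limma adjusted p of 0.0121.

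Gbp11 was the least abundant member in both groups. It had 14.3, 4.53, 13.4, 28.7 and 5.77 TPM in cytokine tumours 6 to 10, against 0.761, 1.45, 2.29, 0.250 and 0.318 TPM in control tumours 1 to 5. As for Gbp10, tumour 9 was highest and tumour 7 lowest among the cytokine mRNA tumours, and the groups did not overlap. Gbp11 averaged 13.4 ± 9.66 TPM in cytokine mRNA tumours and 1.01 ± 0.858 TPM in control tumours (SD, n = 5 each), and rose by 2.67 ± 0.48 (SE, limma adjusted p = 0.0127). Gbp9 and Gbp11 kept their calls with each single tumour left out.

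**Figure D2:**
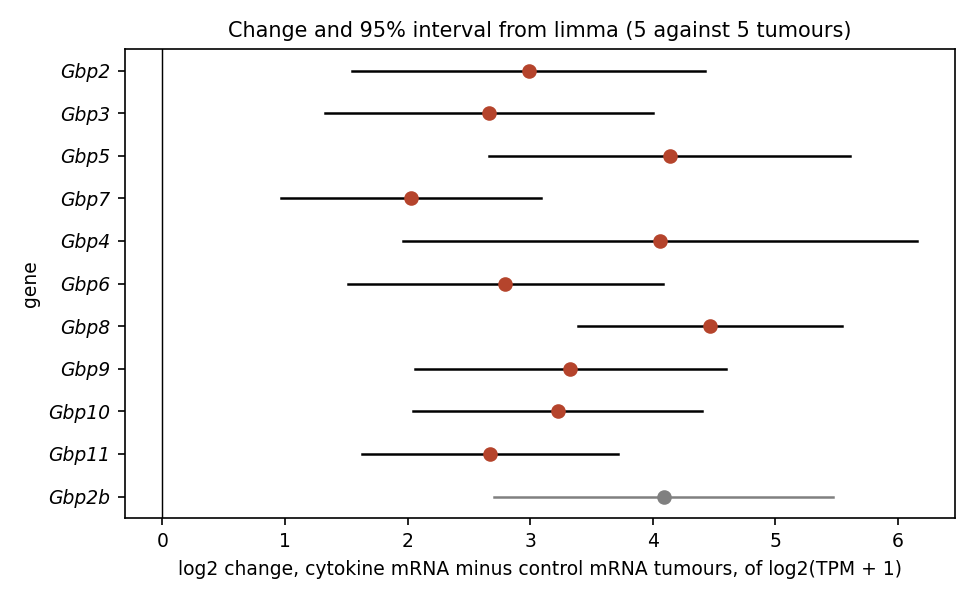
Change of each Gbp gene between cytokine mRNA and control mRNA tumours (5 against 5), as the difference of mean log2(TPM + 1) from limma, with horizontal lines for the 95% interval. The 10 members (red) run from 2.03 for Gbp7 to 4.47 for Gbp8 with every interval above 0, and Gbp2b (grey) is drawn for comparison.

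In cytokine mRNA tumours the order of mean levels was Gbp2, Gbp4, Gbp3, Gbp7, Gbp5, Gbp9, Gbp8, Gbp6, Gbp10 and Gbp11. The neighbours Gbp2 and Gbp4, Gbp7 and Gbp5, Gbp9 and Gbp8, and Gbp8 and Gbp6 did not differ by more than the SD of their log2 difference over the 5 tumours. In control tumours the order was Gbp2, Gbp3, Gbp7, Gbp4, Gbp6, Gbp5, Gbp9, Gbp10, Gbp8 and Gbp11. There the gap to the next member was larger than its SD only between Gbp4 and Gbp6 and between Gbp9 and Gbp10. By mean level, Gbp8 held position 7 in cytokine mRNA tumours and position 9 in control tumours. Gbp4 held position 2 in cytokine mRNA tumours and position 4 in control tumours. Several of the gaps that set these positions lay within their SD, so a shift in position between the groups is not shown.

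The mix of family transcripts differed between the groups. Members on chromosome 5 made up 38.3, 51.2, 40.8, 37.3 and 33.3% of the summed TPM in cytokine tumours 6 to 10, against 27.5, 26.4, 31.0, 21.03 and 9.56% in control tumours 1 to 5. No cytokine mRNA tumour overlapped a control tumour, and the nearest were tumour 10 and control tumour 3. The Gbp5 share was 6.35 to 10.8% in cytokine mRNA tumours and 0 to 5.46% in control tumours. The Gbp8 share was 1.86 to 6.46% in cytokine mRNA tumours and 0 to 1.35% in control tumours, again without overlap. The Gbp7 share was lower, at 5.89 to 15.2% in cytokine mRNA tumours and 15.4 to 36.7% in control tumours, and these ranges nearly met. The Gbp6 share, by contrast, was 3.72 ± 0.212% in cytokine mRNA tumours and 3.77 ± 1.11% in control tumours (SD, n = 5 each). These shares were not tested, because they are made of the same values as the changes above.

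**Figure D3:**
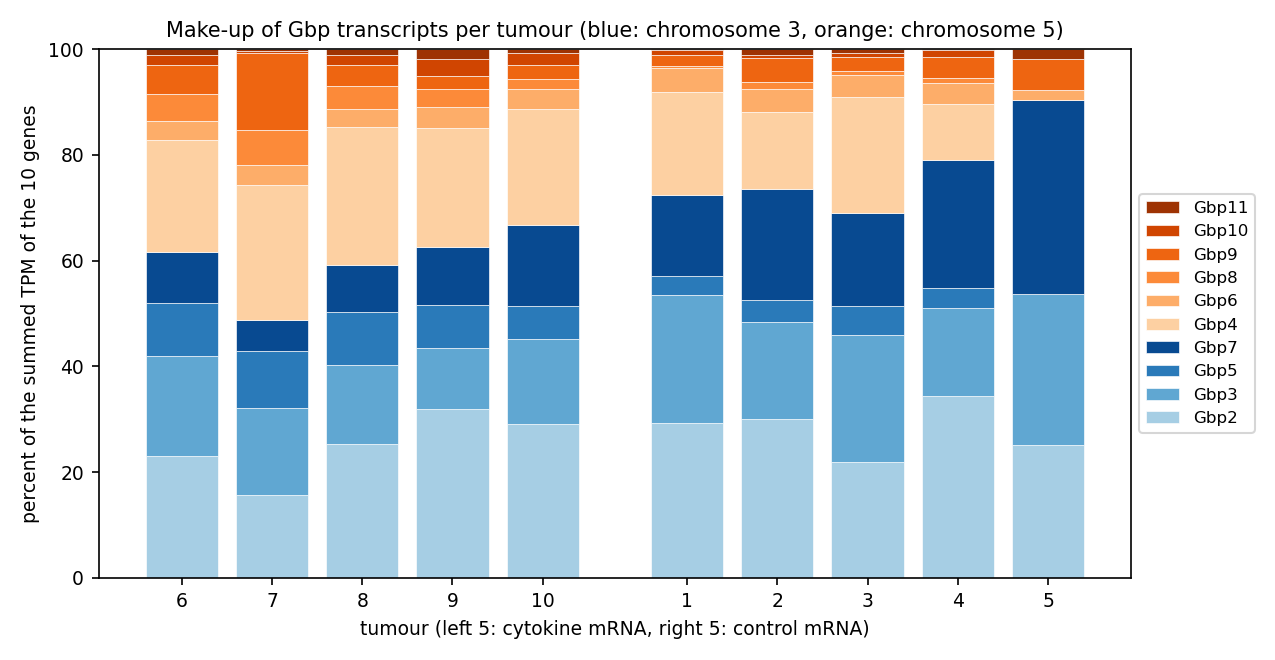
Percent of the summed TPM of the 10 Gbp genes taken by each gene, as stacked bars per tumour, with cytokine mRNA tumours 6 to 10 on the left and control mRNA tumours 1 to 5 on the right (blue, genes on chromosome 3; orange, genes on chromosome 5). The orange part is 33.3 to 51.2% in cytokine mRNA tumours and 9.56 to 31.0% in control tumours.

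The cytokine mRNA tumours did not share a single ranking across the family. Tumour 9 was highest for Gbp2, Gbp4, Gbp6, Gbp7, Gbp10 and Gbp11. Tumour 7 was highest for Gbp5, Gbp8 and Gbp9 but lowest for Gbp7, Gbp10 and Gbp11, and tumour 10 was lowest for the remaining 7 members. Among control tumours, tumour 5 was lowest for 9 members, all but Gbp11. Within the cytokine mRNA group, profiles were compared by the root mean square difference of centred log2(TPM + 1) values over the 5 tumours, where 0 means parallel profiles. Gbp4 and Gbp6 were closest at 0.16, followed by Gbp2 and Gbp7 at 0.22 and Gbp4 and Gbp5 at 0.23. Gbp9 and Gbp10 were farthest apart at 1.80.

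**Figure D4:**
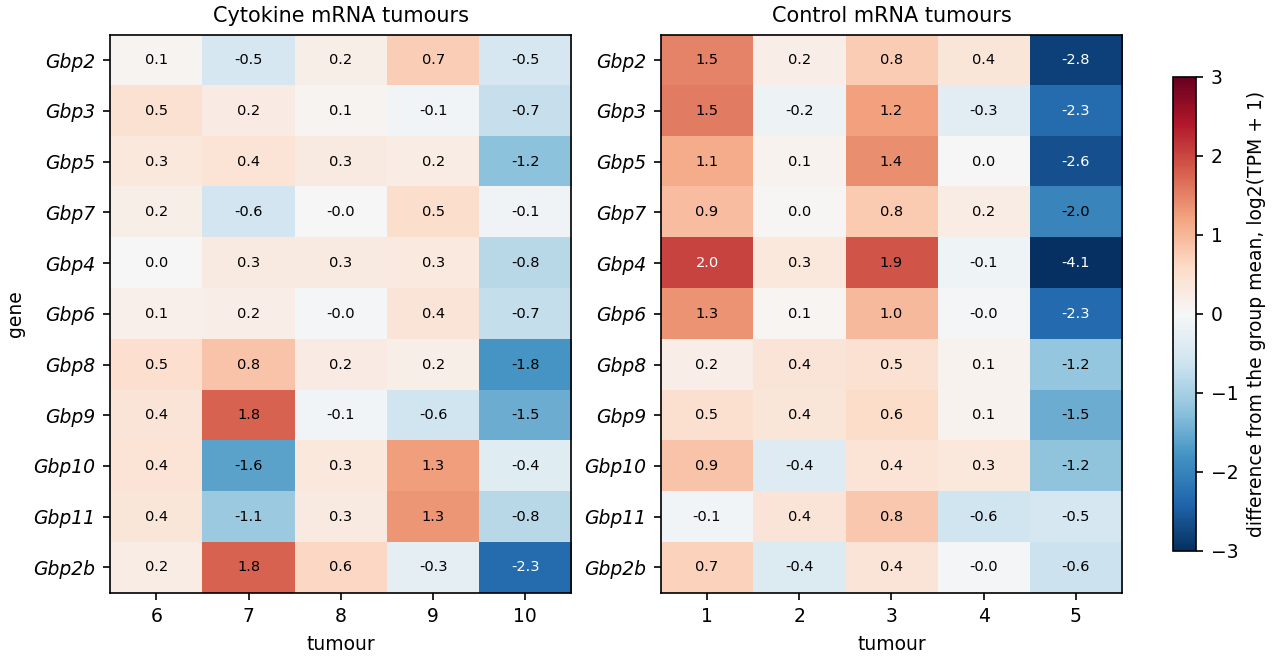
Difference of each tumour from its own group's mean, in log2(TPM + 1), for the 10 Gbp genes and Gbp2b, with cytokine mRNA tumours on the left and control mRNA tumours on the right; colours stop at 3 in either direction. Tumour 7 is 1.76 above its group mean in Gbp9 and 1.60 below it in Gbp10, and control tumour 5 lies below its group mean in every gene.

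Some members resemble each other closely in sequence, and how the authors divided reads among them is not given in the sources used here. Over the longest open reading frames of the GENCODE transcripts, Gbp6 and Gbp10 were identical at 98.4% of aligned bases, Gbp8 and Gbp11 at 95.9% and Gbp4 and Gbp11 at 94.6%. Of all stretches of 50 bases in the reading frame, 69.0% in Gbp6, 64.0% in Gbp10, 34.5% in Gbp11, 29.0% in Gbp8, 24.9% in Gbp4 and 18.4% in Gbp9 also occur in another family member. The share was 6.95% in Gbp3, 6.80% in Gbp7, 2.96% in Gbp2 and 0% in Gbp5. Gbp4, Gbp8 and Gbp9 overlap each other on the same strand in the annotation, and Gbp11 is annotated as a polymorphic pseudogene. Values of the 6 members on chromosome 5 are therefore uncertain in how reads were split between them, and in whether shared reads were counted at all. The order of levels and the shares of the summed TPM given above carry the same uncertainty. Within the cytokine mRNA group the profiles of Gbp6 and Gbp10 had a root mean square difference of 0.93, and the part of shared reads in it was not tested.

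Gbp2b, the family gene formerly named Gbp1 and not among the 10 members, had 30.04, 89.9, 39.6, 20.5 and 4.33 TPM in cytokine tumours 6 to 10. Control tumours 1 to 4 had 1.52, 0.174, 1.03 and 0.526 TPM, and tumour 5 was listed at 0. Its order of cytokine mRNA tumours began with tumour 7 and ended with tumour 10, as for Gbp8. Gbp2b rose by 4.09 ± 0.63 (SE, limma adjusted p = 0.00967), and its mean in cytokine mRNA tumours was 36.9 ± 32.4 TPM (SD, n = 5), or 23.6 TPM without tumour 7.

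Genes of the interferon pathway that acts on the family were examined as a list of 15, of which 13 were tested. Of these, 7 were called higher and 0 lower, where 7.41% of all tested genes were called higher and 3.02% lower. Their median change was 1.42 on the log2(TPM + 1) scale. Ifng, which encodes interferon gamma, rose by 4.06 ± 0.66 (SE, limma adjusted p = 0.0107), with 8.81 to 114 TPM in cytokine mRNA tumours and 0 to 2.79 TPM in control tumours. Stat2, which carries type I interferon signals to the nucleus, rose by 2.45 ± 0.37 (limma adjusted p = 0.00961), with 206 ± 71.3 TPM in cytokine mRNA tumours and 38.5 ± 16.8 TPM in control tumours (SD, n = 5 each). Irf1, a transcription factor that binds interferon-stimulated response elements, rose by 2.32 ± 0.47 (limma adjusted p = 0.0160), with 360 ± 118 TPM in cytokine mRNA tumours and 81.4 ± 51.3 TPM in control tumours (SD, n = 5 each). Ifngr1, a chain of the interferon gamma receptor, rose by 2.24 ± 0.59 (limma adjusted p = 0.0366), although its ranges met, at 29.8 to 360 TPM in cytokine mRNA tumours and 22.9 to 51.1 TPM in control tumours. Socs1 and Ifnar2 were also called higher, while the receptor chains Ifnar1 and Ifngr2 had changes of -0.05 and -0.24 (limma adjusted p = 0.907 and 0.509). The count of 7 was 4 without any one of tumours 2, 3, 4, 5, 7, 8 and 9, where 3.18 to 5.23% of all tested genes were called higher. It was 0 without tumours 6 and 7 together, where 0.152% of all tested genes were.

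Among 14 tested genes of partner GTPases and pyroptosis, which act with or downstream of guanylate-binding proteins, 10 were called higher and 0 lower. Of all tested genes, 7.41% were called higher and 3.02% lower. Aim2, a sensor of DNA in the cytosol, rose by 3.35 ± 0.70 (SE, limma adjusted p = 0.0172), with 7.40 to 133 TPM in cytokine mRNA tumours and 0 to 4.76 TPM in control tumours. Igtp, an immunity-related GTPase (also called Irgm3), rose by 3.17 ± 0.80 (limma adjusted p = 0.0320), with 279 ± 66.9 TPM in cytokine mRNA tumours and 50.2 ± 40.9 TPM in control tumours (SD, n = 5 each). Casp1, the caspase of the canonical inflammasome, rose by 3.09 ± 0.58 (limma adjusted p = 0.0145), with 111 ± 62.6 TPM in cytokine mRNA tumours and 14.6 ± 14.5 TPM in control tumours (SD, n = 5 each). Il1b, whose product it cleaves, rose by 2.81 ± 0.76 (limma adjusted p = 0.0392), although its ranges overlapped, at 4.70 to 82.8 TPM in cytokine mRNA tumours and 1.68 to 14.4 TPM in control tumours. Iigp1, Tgtp1, Tgtp2 and Il18 were not called. The count of 10 was 5 without any one of tumours 2, 3 and 5, 4 without tumour 4 or tumour 9, 2 without tumour 6, 6 without tumour 7 and 3 without tumour 8. In these leave-outs 2.57 to 5.23% of all tested genes were called higher. It was 0 without tumours 6 and 7 together, where 0.152% of all tested genes were called higher.

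Genes that serve the proteins after translation were examined as another pair of lists. Of 9 tested genes of the Atg8 conjugation system, which directs these GTPases to vacuoles, 0 were called by limma. At an unadjusted p under 0.05 limma gave 0 and the exact permutation test 1, where 30.5% and 30.3% of all tested genes passed. The most abundant was Gabarap, with 570 ± 185 TPM in cytokine mRNA tumours and 425 ± 31.2 TPM in control tumours (SD, n = 5 each, limma adjusted p = 0.271). Of 5 prenylation enzyme genes 0 were called by limma, with 2 lower at an unadjusted p under 0.05, where 16.1% of all tested genes were lower at that level, and 2 by the exact permutation test, against 16.3% of all tested genes. Without tumour 10, 2 were called lower, where 12.8% of all tested genes were. Fntb, a farnesyltransferase subunit, had 40.3 ± 31.4 TPM in cytokine mRNA tumours and 91.3 ± 16.6 TPM in control tumours (SD, n = 5 each), a change of -1.57 ± 0.54 (SE, limma adjusted p = 0.0819). Whether these lists differ from the Gbp genes was not tested.

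Many markers of immune cells were also higher in cytokine mRNA tumours. All 7 leukocyte markers were called higher, where 7.41% of all tested genes were, and their summed TPM was 621 to 5411 in cytokine mRNA tumours and 95.3 to 474 in control tumours. Of the tested markers, 6 of 7 for T cells, 3 of 3 for NK cells, 7 of 9 for macrophages and monocytes, 2 of 2 for neutrophils and 4 of 6 for dendritic cells were called higher. Over these 6 lists 29 of 34 tested markers were called. The count was 19 without tumour 2 or tumour 7, 18 without tumour 9, 17 without tumour 4 or tumour 5, 16 without tumour 8 and 14 without tumour 6. In these leave-outs 2.57 to 5.23% of all tested genes were called higher. The filter (a TPM of at least 1 in 5 libraries) passed 3 of 6 listed NK cell markers and 2 of 7 listed neutrophil markers. Klra8 and Klre1 passed only through cytokine mRNA tumours, so counts over tested markers lean to markers high there. Without the filter 23 of 45 were called higher, where 3.86% of all tested genes were. Without tumours 6 and 7 together 1 of the 34 was called, a leukocyte marker, where 0.152% of all tested genes were called higher. The summed T cell markers reached 43.3 to 2175 TPM in cytokine mRNA tumours and 3.83 to 39.7 TPM in control tumours. The summed macrophage and monocyte markers reached 566 to 13782 TPM in cytokine mRNA tumours and 122 to 378 TPM in control tumours. For B cells, 1 of 5 listed markers passed the filter. The sum of the 5 was 2.41 to 18.8 TPM in cytokine mRNA tumours and 1.26 to 4.83 TPM in control tumours. The neutrophil genes S100a9, Ly6g, Retnlg and Mpo and the NK cell gene Klra8 were listed at 0 in all control tumours. No marker of endothelial cells (0 of 6), fibroblasts (0 of 7), skeletal muscle (0 of 5), erythroid cells (0 of 3) or B cells (0 of 1) was called, nor were the 10 reference genes, and no keratinocyte marker was tested. At an unadjusted p under 0.05, limma gave 0 of those cell markers and 3 of the reference genes, 2 of these lower. The exact permutation test gave 0 and 4. Of all tested genes, 30.5% passed that level by limma and 30.3% by the exact permutation test. The part of these cells in the rise of the Gbp genes was not tested.

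Ptprc, the leukocyte surface protein CD45, was set against the family in each tumour. Ptprc had 354, 852, 302, 145 and 40.6 TPM in cytokine tumours 6 to 10, against 26.1, 22.2, 22.2, 19.5 and 7.63 TPM in control tumours 1 to 5. The summed Gbp level per unit of Ptprc was 3.87, 1.58, 4.38, 10.7 and 17.8 in cytokine tumours 6 to 10, and 13.6, 6.28, 12.8, 7.06 and 2.31 in control tumours 1 to 5. These ranges overlapped, and the ratio was lowest of all in tumour 7, where Ptprc was 32.6 times and the Gbp sum 3.80 times the highest control value. In tumour 10, where Ptprc was 1.55 times the highest control value, all 10 members were still above every control tumour, by 1.35 to 6.55 times. Per unit of Ptprc, Gbp8 had 0.102 to 0.376 in cytokine mRNA tumours and 0 to 0.0927 in control tumours, without overlap, and the other 9 members overlapped. Gbp2b likewise did not overlap, at 0.0848 to 0.141 in cytokine mRNA tumours and 0 to 0.0581 in control tumours. Of the tested genes other than Ptprc, 0.176% were higher in this ratio without overlap and 70.6% were lower without overlap. These ratios share the library of each tumour and are given as descriptions.

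**Figure D5:**
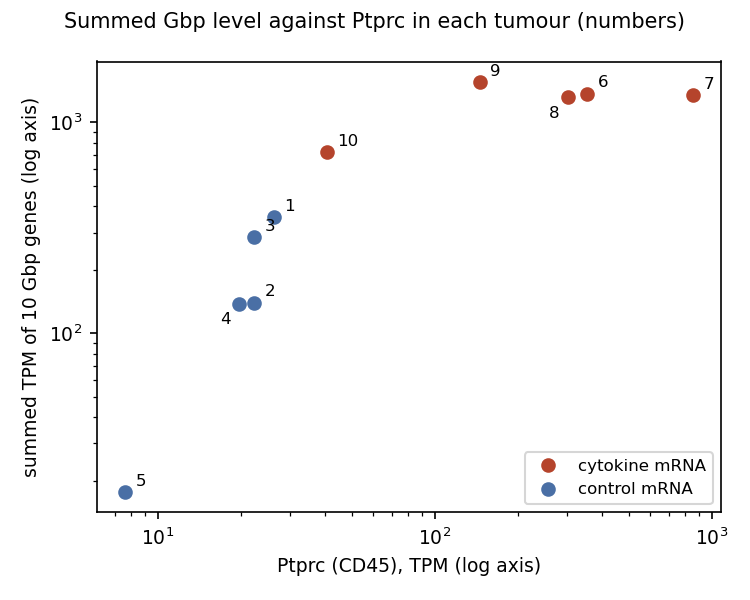
Summed TPM of the 10 Gbp genes against Ptprc, both axes in TPM on log scales, with each point a tumour marked by its number (cytokine mRNA, red, 6 to 10; control mRNA, blue, 1 to 5). Cytokine tumours 6 to 9 have Gbp sums of 1323 to 1554 while their Ptprc ranges from 145 to 852 TPM.

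Genes with a profile like that of the family were sought among named protein-coding genes. Symbols starting with Gm, Tra, Trb, Trg, Trd, Igh, Igk or Igl, symbols ending in Rik, pseudogenes and non-coding genes were left out. Of the remaining tested genes outside the family, the closest to the average of the members over all 10 libraries were Trim12a, Cybb, Irgm2, Zbp1, Trim30a, Tgm2, Anpep and Psmb9. Their root mean square differences from that average, on the centred log2(TPM + 1) scale, ran from 0.28 for Trim12a to 0.44 for Psmb9, while the median of the other 12486 tested genes was 1.94. Among the members themselves it ran from 0.29 for Gbp6 to 0.90 for Gbp4. Cybb encodes the catalytic subunit of the phagocyte NADPH oxidase, and had 209 ± 73.7 TPM in cytokine mRNA tumours and 23.9 ± 16.2 TPM in control tumours (SD, n = 5 each). Irgm2 is an immunity-related GTPase, Zbp1 a sensor of nucleic acids, and Psmb9 a subunit of the immunoproteasome. The changes of these 8 genes between the groups ran from 2.53 for Trim30a to 3.43 for Cybb on the log2(TPM + 1) scale.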

How the data were processed

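The 10 tumours were assigned to groups by the injected mRNA in their labels, 5 to cytokine mRNA and 5 to control mRNA. Per the labels' protocols, polyA RNA from DNase-treated extracts went into stranded NuGEN libraries. The authors deposited 1 table of TPM with 1 column per tumour, each column summing to 1000000. Per the submitters' processing notes, STAR was the aligner and GRCh38 the build. That is a human build, while the symbols are those of mouse, so the build of the table stays unsettled and coordinates are given only for RefSeq promoters. The annotation, the counting method and the treatment of reads shared by several genes remain unstated in the sources used here. The depth per sample is unknown, since TPM do not record it. The number of genes at a TPM of at least 1 was 12197 to 12984 in cytokine mRNA tumours and 11513 to 12657 in control tumours.

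The 12497 genes whose TPM reached 1 in 5 or more libraries were compared on log2(TPM + 1) with limma version 3.58.1 in R 4.3.3 (eBayes with a trend, 2-sided), with Benjamini-Hochberg adjustment over all of them and a threshold of 0.05. Such changes understate those of low genes. The test was checked on simulated data with 200 changed genes and noise independent between genes. Tumours that stand apart in many genes were not simulated, so the check does not cover them. An exact permutation test, an exact rank test, other pseudocounts, filters and scalings, and leaving out tumours served as alternatives. The labels do not say that tumours came from separate mice, so p-values measure the spread between these samples.

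The members, the gene lists and the tests were chosen with earlier results of these data known. All 10 members were named. Of each pathway list, up to 4 called genes with the largest change were named, or the most abundant one if no gene was called. The 8 genes nearest to the average member profile, after the exclusions given above, were named too. Other genes named were chosen after their values were seen. Ifnb1 was below the filter, and Irf8, Gm12250, Map1lc3b, Gbp1, Gbp2-ps, Gbp12, Gbp13 and Acta1 were not analysed here. 1 gene of the interferon list is counted with it but is not reported here.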

Additional observations from a re-analysis of the deposited data

Results flagged for a closer look

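Gbp5 in cytokine tumour 10 lay apart from the other cytokine mRNA tumours, at 46.0 TPM against 128 to 145 TPM, a gap to the nearest tumour of 0.822 of the whole range of the group. The summed TPM of the 10 Gbp genes in the same tumour lay apart in the same way, at 724 against 1323 to 1554, with a gap of 0.722 of the range. The limit for 5 samples is 0.71, and 26 groups of 5 values were checked, of which chance puts about 1 in 20 past the limit. Tumour 10 also had the lowest Ptprc of the cytokine mRNA tumours, 40.6 TPM, and the lowest Ifng, 8.81 TPM, and their part in its low Gbp values was not tested. All 10 members remained called by limma without tumour 10, with changes of 2.06 to 4.91 on the log2(TPM + 1) scale, where 13.2% of all tested genes were called higher.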

How the results depend on the processing

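No member changed direction under any alternative tried. The count of 10 members called higher by limma was 9 with a pseudocount of 0.1, 9 of 9 tested with a filter at a TPM of 5 (Gbp11 fell below it), and 10 with a pseudocount of 5, no filter, median-ratio scaling, rescaling without the 50 most abundant or the mitochondrial genes, quantile normalization, library quality weights and no trend in the variance prior. The share of all tested genes called higher was 6.36% with the pseudocount of 0.1, 6.7% with the filter at 5, 3.86% without a filter, 12.7% with library quality weights and 6.61% to 8.4% in the others. With single tumours left out it was 5 to 10, with the 5 without tumour 6 (2.57% of all tested genes called higher), 6 without tumour 8 (3.18%) and up to 13.2% of genes without tumour 10. It was 2 without tumours 6 and 7 (0.152%), and 10 without tumours 7 and 10 (11.5%). The groups did not overlap in 10 members under median-ratio scaling (6.43% of all tested genes), without the 50 most abundant genes (4.94%) or without mitochondrial genes (4.4%). The 1304 genes called in all became 846 without a filter, 2769 with library quality weights, 367 to 3238 with single tumours left out, 20 without tumours 6 and 7 and 2607 without tumours 7 and 10. Without control tumour 5 and cytokine tumour 10, an alternative added after seeing the data, 2447 genes and 10 members were called (10.8% of genes higher). The exact permutation and rank tests called 0 genes and 0 members, with 3785 and 2914 genes at an unadjusted p under 0.05. Over all tested genes the median change, -0.18, became -0.03 under median-ratio scaling, and rescaling gave -0.28 when the 50 most abundant genes were dropped and -0.37 when mitochondrial genes were. Without a filter on low values, 4 of the interferon genes and 5 of the partner and pyroptosis genes were called higher, where 3.86% of all tested genes were. The causes of these shifts were not tested. Over pseudocounts of 5 and 0.1 the change was 3.09 and 5.57 for Gbp8, 2.02 and 4.30 for Gbp10, 1.47 and 3.66 for Gbp11, and 2.52 and 5.64 for Gbp2b. Without control tumour 5 the fold changes of Gbp2, Gbp4, Gbp5 and Gbp6, taken back from the log2 scale, moved by over 1.5 times. The log2 changes of all 10 members then ranged from 1.53 to 4.18. No paired analysis was possible because the groups share no replicate number. The unknown depth limits what a value listed at 0 can show.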
